A study of Mus musculus with 6 samples.

Results

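Hox genes encode the homeodomain transcription factors that mark position along the body, and the family was read here in 6 RNA-seq libraries of mouse skin. Its members were the rows of the deposited gene table whose symbol is Hoxa, Hoxb, Hoxc or Hoxd followed by a number, which gave 39 of 35434 genes: 11 in the Hoxa cluster, 10 in Hoxb, 9 in Hoxc and 9 in Hoxd. Hoxc13, a gene of the growing hair shaft, was described apart from the other 38. All 6 samples were lesional skin of mice with psoriasis given a transfer of regulatory T cells (Tregs), so no library came from mice without disease or without transferred cells. In 3 samples the cells were control Tregs (Ctrl-Treg), and in the other 3 they were Tregs treated with lenvatinib (Lenv-Treg), a drug that inhibits receptor tyrosine kinases. The labels give the tissue as skin and name no body site, strain, age or way of inducing the disease, and they do not say whether the 3 samples of a group were separate mice. If they were not, the spread on which the p-values rest is technical.

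The mammalian Hox genes lie in clusters, and members of different clusters that descend from the same ancestral gene form a numbered paralogue group. Low-numbered genes are switched on early and towards the head, high-numbered genes late and towards the tail and the far ends of the limbs, so the set of Hox genes that a cell expresses records where along the body it arose. Dermal fibroblasts of adult skin keep such a record, and PBX, MEIS and PKNOX proteins (TALE homeodomain cofactors) bind DNA together with Hox proteins. Groups 1 to 4 are called anterior here, 5 to 8 central and 9 to 13 posterior.

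Values are FPKM, fragments counted on a gene, divided by gene length and library size. A comparison between genes, as in ranks, shares and the 0.5 FPKM level, thus depends on the gene length used. The lengths used were not given, and some that the steps of the FPKM values imply differ from the GENCODE M21 annotation. Hoxa3 had 10868 bases against 6014, and Hoxb3 9627 against 4251. Depth was alike, at 38704536 to 40248462 assigned reads per library, which makes a single read over 1 kb of gene equal to 0.0248 to 0.0258 FPKM. Genes with at least 0.5 FPKM in at least 3 libraries were tested with limma on log2(FPKM + 1), 13945 in all, and a gene is said to have risen or fallen where the Benjamini-Hochberg adjusted p over all of them was under 0.05. Signed differences are given on this log2 scale, Lenv-Treg minus Ctrl-Treg, which understates the change of low genes, and fold changes are ratios of mean FPKM. Sample values are listed in the order replicate 1, 2, 3.

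The Hox genes expressed in these skins, Hoxc13 left out, ended at paralogue group 10 in both arms. At 0.5 FPKM or more, 26, 26 and 27 of the 38 genes were expressed in the Ctrl-Treg libraries, against 24, 23 and 25 in the Lenv-Treg libraries. The highest paralogue group reached was 10 in all 6 libraries, and 21 genes were at this level in every library. In each library all 4 genes of group 9 (Hoxa9, Hoxb9, Hoxc9 and Hoxd9) and all 3 of group 10 (Hoxa10, Hoxc10 and Hoxd10) were expressed, as were all 3 of group 8, both of group 7 and all 3 of group 6. Hoxb3, Hoxb5, Hoxd3 and Hoxd4 were at this level in every control library and below it in at least 1 Lenv-Treg library. Hoxa2 was below it in 1 library of each arm. Hoxa4 went the other way, below it in Ctrl-Treg replicate 1 alone (0.276 FPKM). At 1 FPKM the counts were 19, 21 and 21 against 20, 18 and 19, and the highest group was again 10.

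With Hoxc13 left out, groups 11 to 13, the genes of the tail end and of the outer limb, were at or near 0 in every library. Hoxa13, Hoxb13, Hoxd12 and Hoxd13 had no read in any library, which allows a mean of up to 0.0103, 0.0115, 0.0100 and 0.0102 FPKM in Ctrl-Treg at a floor of 3 reads over the group. This floor covers counting error only. Hoxa11 had the highest single value of these groups, with 0.0654, 0 and 0 FPKM in Ctrl-Treg and 0.121, 0 and 0.0111 FPKM in Lenv-Treg. At a level of 0.1 FPKM it alone extended 1 library, Lenv-Treg replicate 1, to group 11. In Ctrl-Treg the mean of Hoxc11 was higher, at 0.0370 FPKM against 0.0218 FPKM for Hoxa11. Hoxc11, Hoxc12 and Hoxd11 stayed under 0.1 FPKM in each library. No fold is given for these 8 genes, whose reads were at or near the floor.

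**Figure D1:**
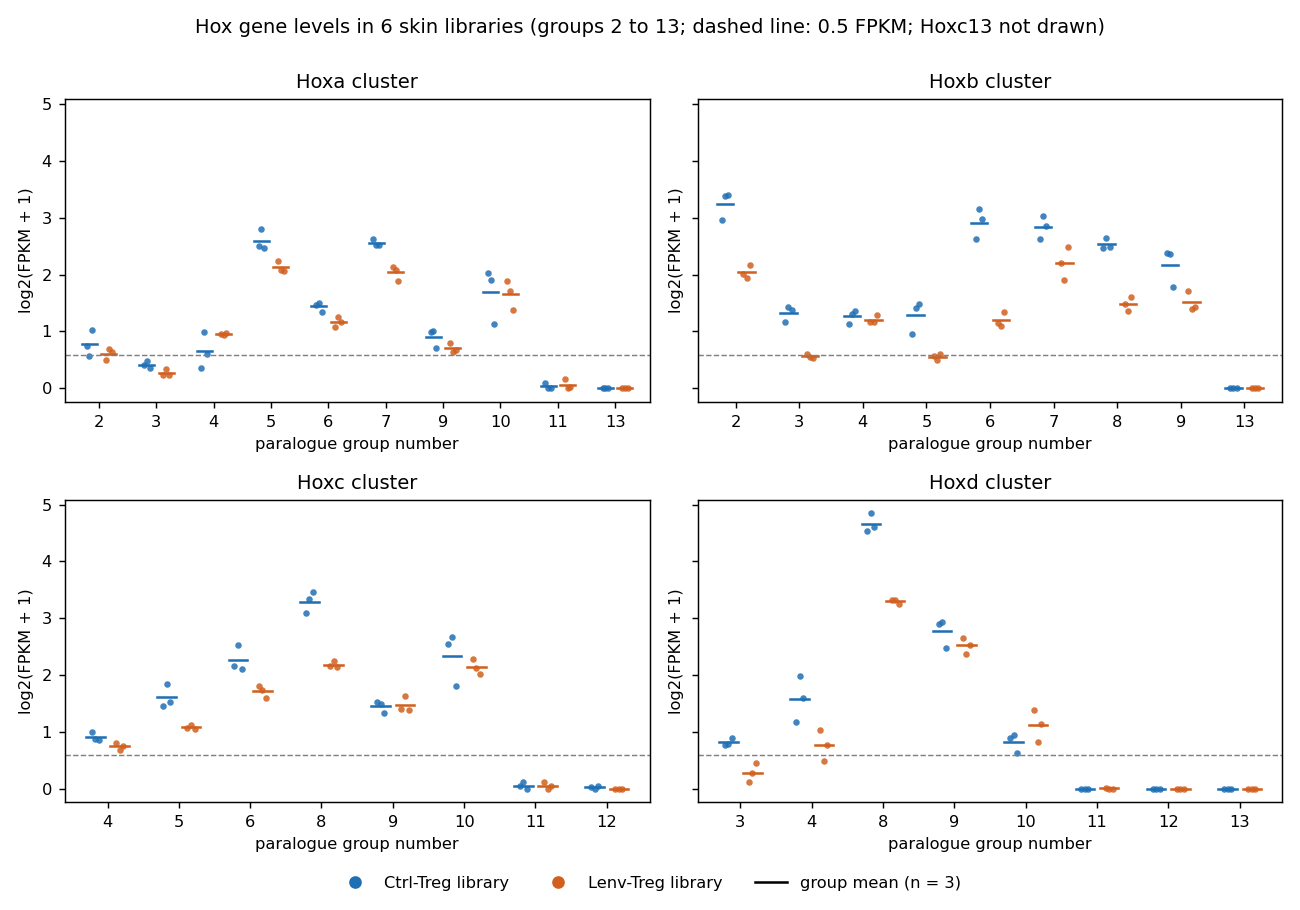
Level of each Hox gene of groups 2 to 13 other than Hoxc13 as log2(FPKM + 1), by cluster and paralogue group, with 1 point per library (blue Ctrl-Treg, orange Lenv-Treg), bars at the group means (n = 3) and a dashed line at 0.5 FPKM. Points above the line run up to group 10 in both groups of libraries, groups 11 to 13 lie at the bottom, and Hoxd8 is the highest gene.

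Among the expressed genes the level differed between the arms, mostly downward in Lenv-Treg. Of the 38 genes, 27 passed the filter; 15 of them fell, 1 rose and 11 did not pass the test. Of all 13945 genes tested, 30.8% fell and 11% rose, 41.7% in either direction. The median difference was -0.52 over the 27 Hox genes and -0.17 over all tested genes. The 3 libraries of one arm all lay below the 3 of the other for 17 Hox genes lower in Lenv-Treg and 1 higher, against 41% and 14.4% of all tested genes (55.4% in either direction). The medians of the 27 genes stayed negative under the other scalings tried, at -0.35 with median-of-ratios scaling, -0.83 after rescaling to TPM and -0.26 after quantile normalization, where the medians of all genes were -0.00, -0.44 and -0.01. With median-of-ratios scaling 1 Hox gene was higher and 12 lower, where 17.3% of all genes were higher and as many lower. With TPM 1 was higher and 18 lower, against 6.79% and 57.2% of all genes, and after quantile normalization 3 were higher and 7 lower, against 16% and 16.5%.

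By position, 10 of the 11 central genes tested fell (median -0.64), against 4 of 9 anterior genes (median -0.18) and 1 of 7 posterior genes (median -0.20). Over all tested genes 30.8% fell. The central median was negative under each scaling, whereas the anterior and posterior medians turned to 0.07 and 0.05 after quantile normalization. With median-of-ratios scaling 8 central, 4 anterior and no posterior genes were lower, where 17.3% of all tested genes were. With TPM the counts were 11, 5 and 2, where 57.2% of all tested genes were lower. With quantile normalization they were 5, 2 and 0, where 16.5% of all tested genes were lower. By cluster, 7 of 8 tested Hoxb genes fell, as did 2 of 8 Hoxa genes, 3 of 6 Hoxc genes and 3 of 5 Hoxd genes. These counts stand against the same 30.8% of all tested genes. The Hoxa median of -0.19 turned to 0.06 after quantile normalization; those of Hoxb, Hoxc and Hoxd remained negative. By fold of mean FPKM the anterior genes that fell did so 2.74-fold (Hoxb2) to 3.45-fold (Hoxd3), and the central ones 1.49-fold (Hoxa5) to 5.09-fold (Hoxb6). Whether one block or cluster differed from another was not tested.

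**Figure D2:**
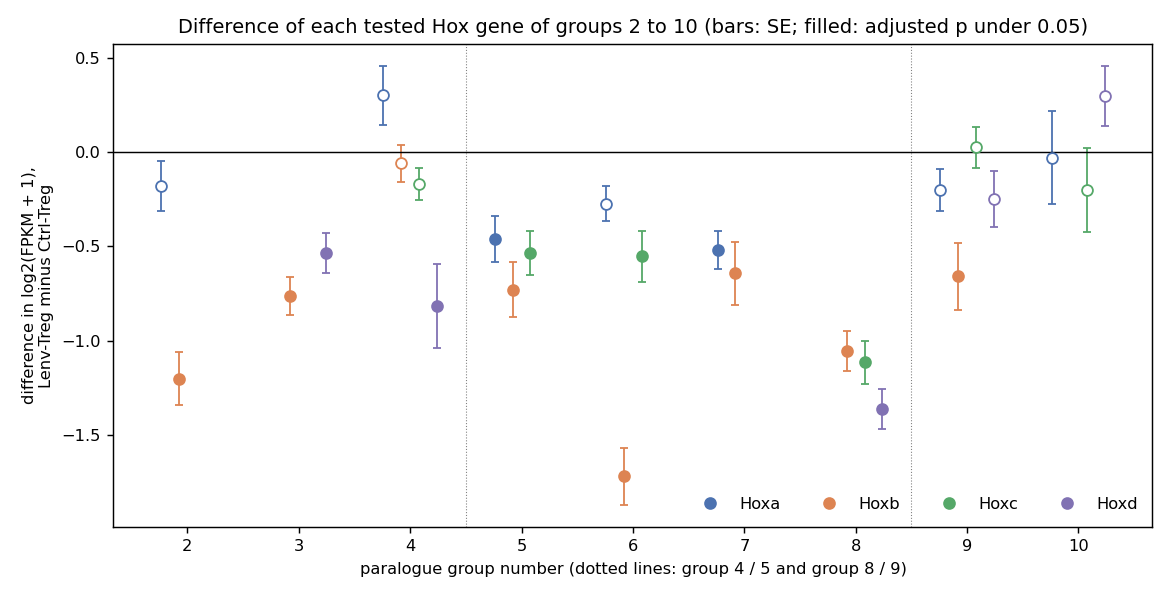
Difference of each tested Hox gene of groups 2 to 10 (Lenv-Treg minus Ctrl-Treg in log2(FPKM + 1), error bars SE) by paralogue group, coloured by cluster, with filled points where the adjusted p was under 0.05. The filled points of groups 5 to 8 all lie below 0, and the posterior points lie near 0 except Hoxb9; after quantile normalization the anterior and posterior medians were 0.07 and 0.05.

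Group 8, the last central group, had the largest share of the summed Hox level in each library, and all 3 of its members fell. Its members are studied for patterning of the thoracic and lumbar body wall. Hoxd8 read 22.1, 27.8 and 23.2 FPKM in Ctrl-Treg and 9.03, 8.97 and 8.47 FPKM in Lenv-Treg. It was 2.76-fold lower (-1.36, SE 0.11, adjusted p = 0.00014) and ranked first of the 39 genes by mean level in Lenv-Treg as in Ctrl-Treg. Hoxc8 read 7.55, 9.06 and 9.98 against 3.45, 3.74 and 3.41 FPKM, 2.51-fold lower (-1.11, SE 0.11, adjusted p = 0.000391). Hoxb8 read 4.54, 5.29 and 4.59 against 1.81, 1.57 and 2.03 FPKM, 2.67-fold lower (-1.05, SE 0.10, adjusted p = 0.00035). For each of these genes every Lenv-Treg library lay well below every Ctrl-Treg library.

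To show what stands in front of these genes, the 250 bases before the annotated start are printed for Hoxd8 and Hoxb8, which fell, for Hoxd3 and Hoxd4, which also fell, and for Hoxd9, the neighbour of Hoxd8 that did not pass the test. They are RefSeq promoter windows of build GRCm38.p6, not of the build of the expression table, and 22 of the 39 Hox genes, Hoxc13 not among them, had 24 such windows (Hoxa10 and Hoxd11 had a pair each). All 5 are on the plus strand: Hoxd9 at chr2:74697513-74697762, Hoxd8 at chr2:74704365-74704614, Hoxd3 at chr2:74711743-74711992, Hoxd4 at chr2:74721728-74721977 and Hoxb8 at chr11:96281655-96281904. Capitals mark matches, on either strand, to 6 short motifs. TATAAA is the core of the TATA box, where the general transcription machinery binds, and CCAAT is the site of the factor NF-Y. GGGCGG is the GC box, while TGATNNAT is a joint site of HOX with PBX proteins. TGACAG is a MEIS site, and AGGTCA is the core site of retinoid receptors.
Hoxd9: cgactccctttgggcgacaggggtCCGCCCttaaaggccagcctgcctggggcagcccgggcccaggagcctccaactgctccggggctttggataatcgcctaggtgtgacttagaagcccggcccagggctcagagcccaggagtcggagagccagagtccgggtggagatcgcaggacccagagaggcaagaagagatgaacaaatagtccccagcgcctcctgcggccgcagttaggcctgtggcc
Hoxd8: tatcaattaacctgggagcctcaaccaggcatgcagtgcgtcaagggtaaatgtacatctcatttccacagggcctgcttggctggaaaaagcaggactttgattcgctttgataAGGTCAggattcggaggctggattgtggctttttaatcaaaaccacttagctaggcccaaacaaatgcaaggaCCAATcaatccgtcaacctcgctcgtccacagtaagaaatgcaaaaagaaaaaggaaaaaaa
Hoxd3: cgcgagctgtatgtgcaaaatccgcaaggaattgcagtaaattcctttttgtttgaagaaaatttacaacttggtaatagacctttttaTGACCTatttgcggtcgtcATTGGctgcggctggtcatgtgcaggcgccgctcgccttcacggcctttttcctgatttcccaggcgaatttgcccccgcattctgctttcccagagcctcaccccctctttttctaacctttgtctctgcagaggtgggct
Hoxd4: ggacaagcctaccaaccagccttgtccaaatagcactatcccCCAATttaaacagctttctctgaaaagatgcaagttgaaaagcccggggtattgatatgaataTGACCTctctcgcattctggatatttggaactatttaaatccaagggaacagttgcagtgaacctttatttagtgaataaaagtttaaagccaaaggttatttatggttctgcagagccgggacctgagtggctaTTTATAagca
Hoxb8: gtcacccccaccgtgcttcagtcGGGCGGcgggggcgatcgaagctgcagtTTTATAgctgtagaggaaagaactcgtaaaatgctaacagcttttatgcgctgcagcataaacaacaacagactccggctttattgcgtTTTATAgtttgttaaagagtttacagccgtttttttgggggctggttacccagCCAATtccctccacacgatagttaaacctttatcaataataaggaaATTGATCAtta
The windows of Hoxd8, Hoxd3 and Hoxd4 each hold a CCAAT box and an AGGTCA site, in either orientation. That of Hoxd4 also holds the letters TATAAA on the other strand, at -10 from the start. In the Hoxd9 window, of the 6 motifs, the GC box alone was found. The window of Hoxd10, which did not pass the test either, is not printed. It also holds a CCAAT box and an AGGTCA site, in either orientation. The Hoxb8 window holds the letters TATAAA on the other strand at -199 and at -110, a CCAAT box, a GC box and a TGATNNAT site. Of 32851 promoter windows of this length, 12.4% hold TATAAA, 33.8% CCAAT, 32.7% GGGCGG, 7.68% TGATNNAT, 15.9% TGACAG and 14% AGGTCA. Among the 24 Hox windows the counts were 4, 14, 10, 4, 2 and 6 in that order. A match is a description of the letters, not a shown binding site, and no match says only that the letters are not in the window.

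Groups 5 to 7 fell in each cluster that has them, apart from Hoxa6. Their products pattern the cervical and thoracic region and its connective tissue, and Hoxb6 showed the largest fall of the 27 genes. Hoxb6 read 5.15, 7.92 and 6.88 FPKM in Ctrl-Treg and 1.23, 1.14 and 1.55 FPKM in Lenv-Treg, a fold of 5.09 (-1.72, SE 0.15, adjusted p = 0.000222). By mean level it moved from rank 5 to rank 15 of the 39 genes. Its neighbour Hoxb5 read 0.944, 1.66 and 1.80 against 0.488, 0.406 and 0.519 FPKM (3.11-fold lower, -0.73, SE 0.14, adjusted p = 0.00672). Hoxb7 read 5.21, 7.16 and 6.28 against 3.61, 2.76 and 4.59 FPKM (1.70-fold lower, -0.64, SE 0.17, adjusted p = 0.0195). In Hoxb6 the arms were far apart and in Hoxb7 they were close, with Lenv-Treg replicate 3 next to the lowest control library.

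In the Hoxc cluster, Hoxc5 read 1.76, 2.58 and 1.88 against 1.09, 1.16 and 1.07 FPKM (-0.53, SE 0.12, adjusted p = 0.00987). Hoxc6, a gene of the upper trunk, read 3.45, 4.78 and 3.31 against 2.52, 2.31 and 2.01 FPKM (-0.55, SE 0.14, adjusted p = 0.0152). For both, Ctrl-Treg replicate 2 was the highest library and the arms did not overlap. In the Hoxa cluster, Hoxa5, which acts in the cervical and upper thoracic region, read 4.68, 6.02 and 4.54 against 3.75, 3.25 and 3.20 FPKM (-0.46, SE 0.12, adjusted p = 0.0195). Hoxa7 read 5.20, 4.76 and 4.74 against 3.42, 3.23 and 2.72 FPKM (-0.52, SE 0.10, adjusted p = 0.00602). Hoxa6, between them, read 1.77, 1.85 and 1.54 against 1.11, 1.39 and 1.25 FPKM, also without overlap, and just missed the threshold (-0.27, SE 0.09, adjusted p = 0.0527).

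Some of these calls depended on single libraries or on the scaling. Leaving out Ctrl-Treg replicate 2, Lenv-Treg replicate 2 or Lenv-Treg replicate 3 ended the call of Hoxa5 (adjusted p = 0.0526, 0.0691 and 0.0611), leaving out Ctrl-Treg replicate 2 or Lenv-Treg replicate 2 that of Hoxb7 (0.0595 and 0.0606), and leaving out Lenv-Treg replicate 3 that of Hoxc6 (0.0528). After quantile normalization Hoxa5, Hoxa7, Hoxb7, Hoxc5 and Hoxc6 did not pass (adjusted p = 0.129, 0.0504, 0.0826, 0.108 and 0.0944). With median-of-ratios scaling Hoxa5 and Hoxb7 did not pass (0.0789 and 0.0582), nor did Hoxb7 without the filter (0.0549).

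Among the anterior genes, Hoxb2, Hoxb3, Hoxd3 and Hoxd4 fell. Anterior Hox genes are best known for patterning the hindbrain and the neck. Hoxb2 read 6.77, 9.40 and 9.58 FPKM in Ctrl-Treg and 3.05, 2.86 and 3.49 FPKM in Lenv-Treg (2.74-fold lower, -1.20, SE 0.14, adjusted p = 0.000698). Hoxb3 read 1.25, 1.71 and 1.59 against 0.522, 0.465 and 0.454 FPKM (3.16-fold lower, -0.76, SE 0.10, adjusted p = 0.00106). In both genes the arms were separated by more than the whole range of the Lenv-Treg libraries. The reads of both may include those of Hoxb3os, since the sources used here do not say whether counting used strand. Hoxb3os runs on the other strand and overlaps 27.3% of the exon bases of Hoxb2 and 52.9% of those of Hoxb3 in GENCODE M21. The implied lengths of the models counted were 1728 and 9627 bases, against 3488 and 4251 in M21. The percentages may thus not hold for those models. Hoxb3os itself read 2.18, 2.61 and 2.64 against 1.24, 1.27 and 1.33 FPKM and fell (-0.61, SE 0.09, adjusted p = 0.00214).

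Hoxd3 read 0.711, 0.722 and 0.864 FPKM in Ctrl-Treg against 0.0862, 0.214 and 0.365 FPKM in Lenv-Treg (3.45-fold lower, -0.54, SE 0.11, adjusted p = 0.0067). Hoxd4 read 1.24, 2.93 and 2.04 against 1.06, 0.408 and 0.700 FPKM (2.87-fold lower, -0.82, SE 0.22, adjusted p = 0.0224). Hoxd4 varied widely within each arm, and its highest Lenv-Treg library lay close to its lowest control library. Its call was lost on leaving out replicate 2 or 3 of Ctrl-Treg (adjusted p = 0.0523 for each) or replicate 2 or 3 of Lenv-Treg (0.0769 and 0.0623), and without the filter (0.0671). After quantile normalization neither Hoxd3 (-0.26, adjusted p = 0.115) nor Hoxd4 (-0.56, adjusted p = 0.0799) passed. In GENCODE M21 the genes overlap on the same strand over 9.26% of the exon bases of Hoxd3 and 13.2% of those of Hoxd4. A predicted gene on that strand overlaps 53.1% and 39.1% of them. Reads of Hoxd3 and Hoxd4 could thus be split between these genes. The gene models counted differ from those of M21: the implied lengths were 2902 bases for Hoxd3 and 2560 for Hoxd4, against 4191 and 2948. These percentages may thus not hold for the models counted.

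Hoxa2, Hoxa4, Hoxb4 and Hoxc4 did not pass the test. Hoxa2 read 0.684, 0.488 and 1.05 against 0.408, 0.614 and 0.553 FPKM (adjusted p = 0.301). Hoxa4 read 0.276, 0.983 and 0.522 against 0.930, 0.908 and 0.955 FPKM (adjusted p = 0.157), with controls spread widely and Lenv-Treg libraries nearly equal; without Ctrl-Treg replicate 2 it passed as higher (adjusted p = 0.0206). Hoxb4 read 1.19, 1.47 and 1.56 against 1.24, 1.25 and 1.44 FPKM (adjusted p = 0.651). In Hoxa2, Hoxa4 and Hoxb4 the arms overlapped. Hoxc4 read 0.991, 0.841 and 0.819 against 0.740, 0.605 and 0.684 FPKM, without overlap (adjusted p = 0.153). Of the anterior genes outside the filter, Hoxa3 read 0.320, 0.402 and 0.281 against 0.175, 0.258 and 0.181 FPKM, and Hoxd1 had 19 reads over the Ctrl-Treg libraries and 1 over the Lenv-Treg libraries. For each of these the exact permutation test of the means gave p = 0.1, the smallest that 3 against 3 allows; in a limma fit without the filter, in which 16% of genes fell and 5.77% rose, Hoxd1 passed (adjusted p = 0.0392) and Hoxa3 did not (adjusted p = 0.075). Hoxb1 stayed at or under 0.0807 FPKM.

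The posterior genes, which pattern the lumbar and sacral region and the limb, mostly kept overlapping levels. Hoxd9, the highest of them, read 6.47, 6.68 and 4.55 FPKM in Ctrl-Treg and 5.29, 4.19 and 4.80 FPKM in Lenv-Treg (adjusted p = 0.208). Hoxc10 read 4.83, 5.39 and 2.48 against 3.87, 3.35 and 3.05 FPKM (adjusted p = 0.496). Hoxa10 read 3.08, 2.77 and 1.19 against 2.71, 2.29 and 1.59 FPKM (adjusted p = 0.932). For all of these, Ctrl-Treg replicate 3 was the lowest control library and the arms overlapped. Hoxc9 read 1.86, 1.81 and 1.51 against 1.64, 2.12 and 1.60 FPKM (adjusted p = 0.865). Hoxa9 read 0.995, 1.01 and 0.631 against 0.745, 0.558 and 0.592 FPKM (adjusted p = 0.188). Hoxd10 read 0.865, 0.916 and 0.547 against 1.61, 0.776 and 1.21 FPKM (adjusted p = 0.167), with the highest values in Lenv-Treg but with overlap.

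Hoxb9 was the posterior gene that fell, from 4.21, 4.13 and 2.46 to 2.29, 1.64 and 1.71 FPKM (1.92-fold lower, -0.66, SE 0.18, adjusted p = 0.0224). Ctrl-Treg replicate 3 was again the lowest control library, just above Lenv-Treg replicate 1. This call was lost on leaving out replicate 1 or 2 of Ctrl-Treg (adjusted p = 0.0638 and 0.0666) or replicate 2 or 3 of Lenv-Treg (0.0769 and 0.0698). It was also lost without the filter (0.0668), with median-of-ratios scaling (0.0598) and after quantile normalization (0.12). Without Ctrl-Treg replicate 3, in contrast, Hoxc10 and Hoxd9 passed as lower (-0.47, adjusted p = 0.0301, and -0.40, adjusted p = 0.0465). That library also had the lowest summed level of 10 skeletal muscle markers among the controls, 3099 FPKM against up to 9845 FPKM, and the lowest of 6 endothelial markers, 71.95 against up to 114.1 FPKM; their part in the posterior Hox values was not tested.

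The make-up of the summed Hox level differed between the arms. The 38 genes summed to 98.9, 121.3 and 101.1 FPKM in Ctrl-Treg and to 59.2, 53.6 and 55.8 FPKM in Lenv-Treg, 0.525 of the control mean. Posterior genes made up 22.7%, 18.8% and 13.3% of this sum in Ctrl-Treg against 31.0%, 27.8% and 26.2% in Lenv-Treg. Central genes made up 63.0%, 65.0% and 68.0% against 53.2%, 55.8% and 55.3%. Neither share overlapped between the arms, whereas the anterior share did, at 14.3%, 16.2% and 18.7% against 15.7%, 16.4% and 18.6%. Group 8 alone gave 34.6%, 34.7% and 37.4% against 24.1%, 26.6% and 24.9%. Groups 9 and 10 made up 11.3% and 6.84% on average in Ctrl-Treg, against 16.1% and 12.1% in Lenv-Treg, without overlap. A higher share was not particular to the posterior groups. Groups 4, 5 and 7 made up 4.59%, 8.02% and 10.4% on average in Ctrl-Treg against 6.46%, 8.86% and 12.1% in Lenv-Treg, also without overlap. The higher shares went with lower mean levels. The summed FPKM of groups 4, 5, 7, 9 and 10 was 0.734, 0.578, 0.610, 0.748 and 0.927 of the control mean. The shares of groups 2, 3 and 6 were lower in Lenv-Treg without overlap, as was that of group 8. These shares are ratios within a library and do not depend on how libraries are scaled to each other; they are given without a test.

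**Figure D3:**
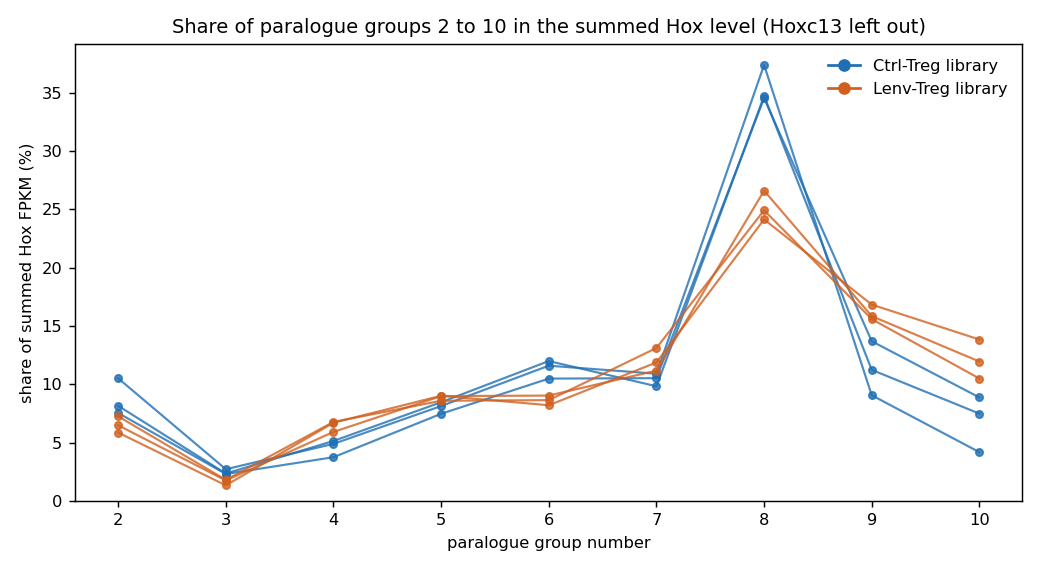
Share of paralogue groups 2 to 10 in the summed FPKM of the 38 Hox genes other than Hoxc13 (percent), with 1 line per library (blue Ctrl-Treg, orange Lenv-Treg). Group 8 is the peak in every library, at 34.6% to 37.4% for Ctrl-Treg against 24.1% to 26.6% for Lenv-Treg. The orange lines lie above the blue ones at groups 4, 5, 7, 9 and 10.

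Ratios of genes of the same cluster within a library do not depend on scaling between libraries. Hoxd8 was 3.41, 4.16 and 5.11 times Hoxd9 in Ctrl-Treg and 1.71, 2.14 and 1.77 times in Lenv-Treg. Hoxc8 was 4.05, 4.998 and 6.59 times Hoxc9 against 2.11, 1.77 and 2.13 times. Hoxb6 was 4.32, 5.38 and 4.41 times Hoxb4 (Hoxb5, which also fell, lies between them) against 0.990, 0.913 and 1.08 times, so these genes were at nearly equal levels in Lenv-Treg. These ratios did not overlap between the arms; those of Hoxb8 to Hoxb9 and of Hoxa7 to Hoxa9 did.

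Hoxc13 stood apart from the rest of the family. It is expressed in the matrix, cortex and cuticle of growing hair and in nail, where it drives hair keratin genes, and it is the exception to the rule that group 13 marks the tail end. Hoxc13 read 11.03, 20.2 and 21.3 FPKM in Ctrl-Treg and 0.319, 0.235 and 0.176 FPKM in Lenv-Treg. It was 71.99-fold lower (-3.85, SE 0.23, adjusted p = 4.91e-05), and by mean level it went from rank 2 of the 39 genes to rank 27. Its cluster neighbour Hoxc12 had 2 reads over all 6 libraries and Hoxc11 8, counts too low for a fold. The call of Hoxc13 held in all 18 alternatives.

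Most genes of the hair shaft and matrix list fell, as Hoxc13 did. Of 22 such genes 21 were tested, and 18 fell and 1 (Ovol1) rose, where 30.8% of all tested genes fell and 11% rose. The median difference was -3.42. Krt84, the listed keratin gene outside the filter, read 0.329, 0.0596 and 0.211 against 0.886, 0.812 and 0.413 FPKM, higher in each Lenv-Treg library. The hair keratin gene Krt35 read 73.7, 156 and 180 FPKM in Ctrl-Treg and 0.0581, 0.577 and 0.0586 FPKM in Lenv-Treg (-6.73, SE 0.33, adjusted p = 2.91e-05). Krt85, another hair keratin gene, fell from 71.9, 127.9 and 144.6 to 0.0386, 0.412 and 0.0487 FPKM (adjusted p = 1.65e-05). In both keratin genes Lenv-Treg replicate 2 was the highest of its arm, and without it the Lenv-Treg means were 0.0584 and 0.0437 FPKM in place of 0.231 and 0.167 FPKM. The homeobox genes Dlx3 and Msx1 of the hair matrix fell 13.2-fold and 21.1-fold (adjusted p = 7.71e-05 and 8.42e-05). In each of these genes, as in Hoxc13, Ctrl-Treg replicate 1 was the lowest control library. Within Ctrl-Treg, Hoxc13 was 0.150, 0.129 and 0.119 times Krt35, and within Lenv-Treg, where Krt35 rests on 4, 40 and 4 reads, 5.49, 0.407 and 3.01 times. Foxn1, a hair factor named here after its values were seen, read 3.11, 4.21 and 5.03 against 3.92, 4.22 and 3.89 FPKM and did not pass (adjusted p = 0.946). Of 8 dermal papilla markers 6 were tested and 5 fell, and their sum was 32.8 to 45.5 FPKM in Ctrl-Treg and 5.39 to 9.06 FPKM in Lenv-Treg; none was at 0 in every library, and their part in the Hoxc13 result was not tested.

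**Figure D4:**
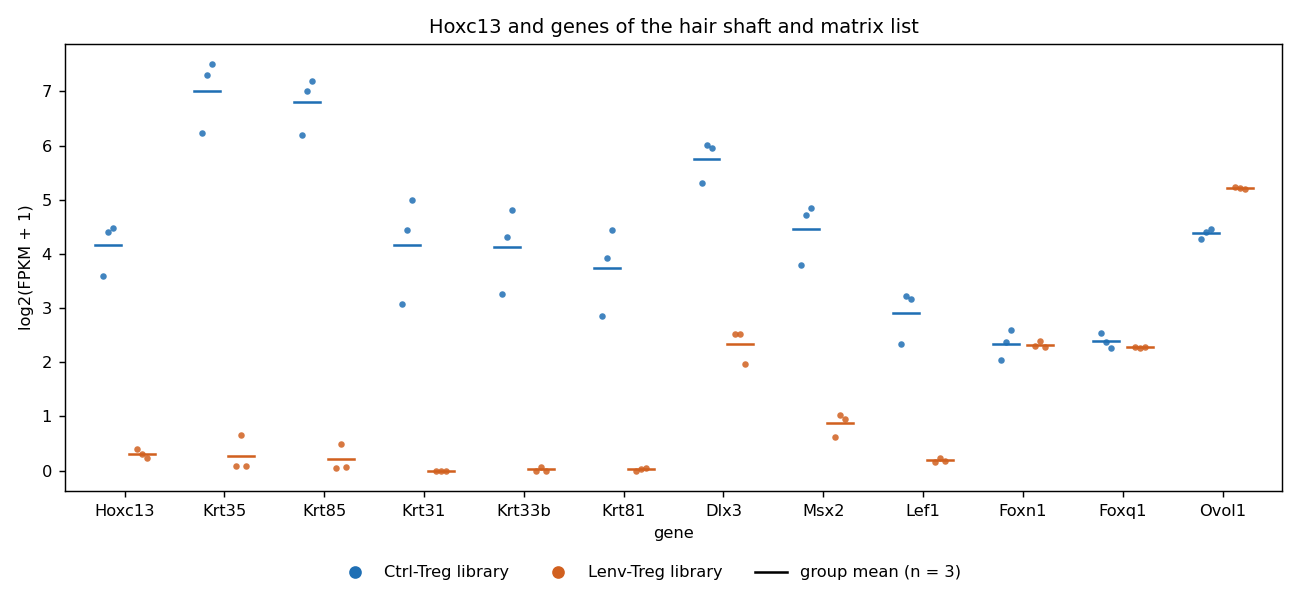
Level of Hoxc13 and of 11 genes of the hair shaft and matrix list as log2(FPKM + 1), 1 point per library (blue Ctrl-Treg, orange Lenv-Treg) and bars at the group means (n = 3). Hoxc13, the keratin genes, Dlx3, Msx2 and Lef1 are far lower in Lenv-Treg, Foxn1 and Foxq1 overlap, and Ovol1 is higher.

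Noncoding and neighbouring genes of the Hox clusters did not share 1 direction. Of 18 listed, 9 were tested, 4 rose and 2 fell, where 11% of all tested genes rose and 30.8% fell. After rescaling to TPM 2 rose and 4 fell, where 6.79% of all tested genes rose and 57.2% fell. Hoxb5os, transcribed from the strand opposite Hoxb5, read 1.11, 2.72 and 4.12 FPKM in Ctrl-Treg and 0, 0.0852 and 0.0866 FPKM in Lenv-Treg (-1.70, SE 0.29, adjusted p = 0.00323). The Lenv-Treg values rest on 0, 2 and 2 reads, so no fold is given. Hotairm1, a noncoding RNA of the Hoxa cluster, read 7.86, 7.27 and 11.2 against 12.95, 14.9 and 18.6 FPKM and rose (0.76, SE 0.18, adjusted p = 0.0139). Halr1, another noncoding RNA beside that cluster, named here after its values were seen, read 0.804, 0.0918 and 0.279 against 0.900, 1.83 and 1.91 FPKM (0.88, SE 0.23, adjusted p = 0.0187). The call of Halr1 was lost without the filter (0.0572) and on leaving out Ctrl-Treg replicate 2 (0.0525), Lenv-Treg replicate 2 (0.0665) or Lenv-Treg replicate 3 (0.0656). In Hotairm1 and Halr1 every Lenv-Treg library lay above every control library, and in Hoxb5os every one lay below. Skap2, a protein-coding neighbour of the Hoxa cluster, rose 1.5-fold (adjusted p = 0.00799, but 0.0563 with TPM), and Mtx2, beside the Hoxd cluster, did not pass (adjusted p = 0.267). Evx1, Evx2 and Hottip were at 0 in all libraries.

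Of 8 Hox cofactors tested, 3 fell and none rose, where 30.8% of all tested genes fell, and 1 fell with median-of-ratios scaling, where 17.3% did. Pknox1 fell from 6.36, 7.36 and 7.07 to 4.43, 4.13 and 3.90 FPKM (-0.62, SE 0.10, adjusted p = 0.00214). Pbx2 (1.28-fold, adjusted p = 0.0217) and Meis1 (1.51-fold, adjusted p = 0.0266) fell too. On leaving out replicate 2 of either arm, 1 of these cofactors fell. Pbx2 also lost its call without Lenv-Treg replicate 1 (0.0559), and Meis1 without the filter (0.0709) and on leaving out Ctrl-Treg replicate 1 (0.0663) or Lenv-Treg replicate 3 (0.0823).

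Position in skin is also recorded by transcription factors outside the Hox family. Of 25 such regional factors 16 were tested, 8 fell and 1 rose, where 30.8% of all tested genes fell and 11% rose. The median difference was -0.56. Pitx1, a factor that specifies the hindlimb and is also found in stressed epidermis, read 0.374, 0.317 and 0.0874 FPKM in Ctrl-Treg and 2.54, 2.20 and 2.55 FPKM in Lenv-Treg (9.38-fold higher, 1.45, SE 0.11, adjusted p = 0.000145). Tbx5, which specifies the forelimb, was at or under 0.00454 FPKM, and Tbx4, the hindlimb counterpart, at or under 0.177 FPKM. Alx4 fell from 5.09, 3.80 and 4.70 to 0.101, 0.244 and 0.0388 FPKM (35.5-fold, or 64.8-fold without Lenv-Treg replicate 2, adjusted p = 3.72e-05). Twist2 and Twist1, mesenchymal factors of the dermis, fell 2.05-fold and 1.65-fold (adjusted p = 0.0012 and 0.00274). Tbx15, a dorsal dermis factor, read 19.5, 22.8 and 16.3 against 11.6, 12.1 and 8.0 FPKM (-0.83, SE 0.18, adjusted p = 0.00887), and En1 2.48, 2.18 and 2.33 against 1.69, 2.15 and 1.36 FPKM (adjusted p = 0.088). Tbx4, Tbx5, Tbx15 and En1 were named after their values were seen.

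**Figure D5:**
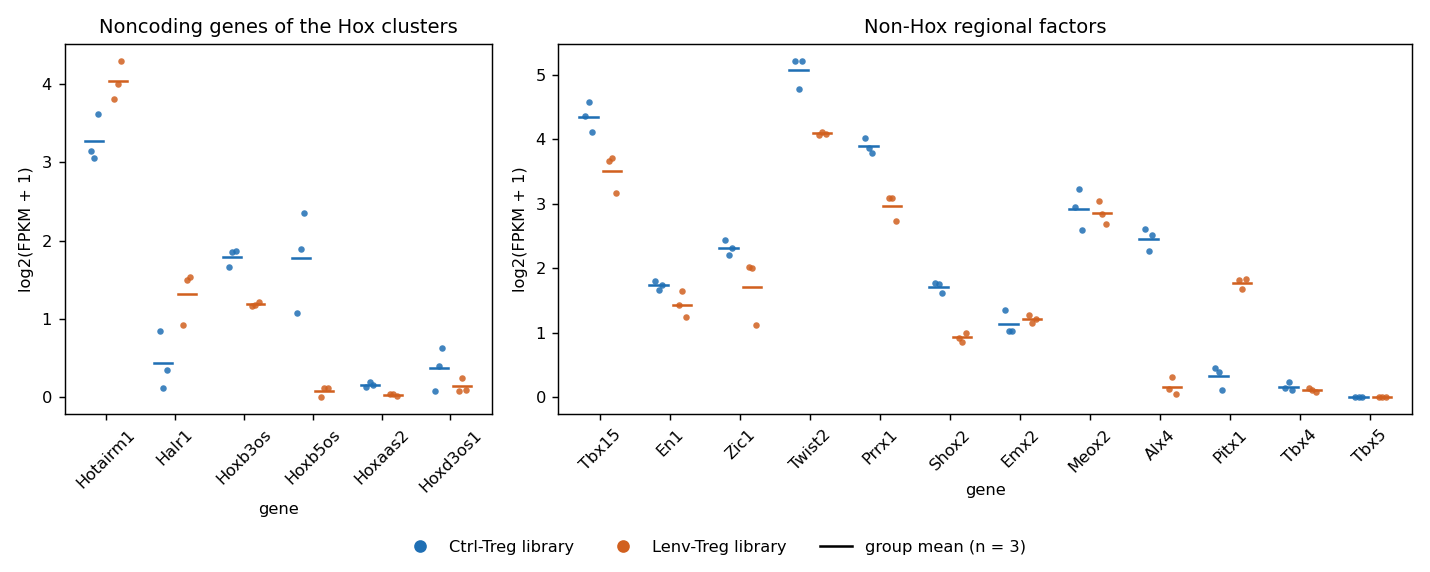
Level of 6 noncoding genes of the Hox clusters and of 12 regional factors outside the family as log2(FPKM + 1), 1 point per library (blue Ctrl-Treg, orange Lenv-Treg) and bars at the group means (n = 3). Hotairm1, Halr1 and Pitx1 are higher in Lenv-Treg, Hoxb3os, Hoxb5os and Alx4 lower, and Tbx5 is at or near 0 in all libraries.

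Regulators of Hox transcription were read last. Of 13 tested retinoid and Cdx genes 2 rose and 4 fell, where 11% of all tested genes rose and 30.8% fell. With median-of-ratios scaling 4 rose and 2 fell, where 17.3% of all tested genes rose and as many fell. Crabp2, which carries retinoic acid to its nuclear receptors, rose from 50.5, 28.1 and 50.7 to 109, 124 and 148 FPKM (2.95-fold, adjusted p = 0.002). The receptor gene Rara fell 1.56-fold (adjusted p = 0.0022), and Rxra did not pass (adjusted p = 0.113). Cdx2 and Cdx4, activators of Hox genes in the embryo, had no read. Of 29 Polycomb and Trithorax genes, whose products keep Hox genes silent or active, 13 fell and none rose, where 30.8% of all tested genes fell. The count was 7 with median-of-ratios scaling, 27 with TPM and 5 after quantile normalization, where 17.3%, 57.2% and 16.5% of all tested genes fell. Ezh2, the Polycomb methyltransferase, fell from 7.82, 8.72 and 9.81 to 4.26, 3.94 and 4.93 FPKM (-0.86, SE 0.12, adjusted p = 0.00123). Cbx2 fell 1.81-fold (adjusted p = 0.000893) and Ash2l 1.28-fold (adjusted p = 0.0142, lost with median-of-ratios scaling at 0.227, after quantile normalization at 0.0595 and without Lenv-Treg replicate 2 at 0.0526), while Eed did not pass (adjusted p = 0.369).

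Markers of cell types of the skin were read beside the Hox genes. The counts below stand against 30.8% of all tested genes that fell and 11% that rose. In whole skin, fewer cells of a type and less RNA per cell cannot be told apart. Of 10 dermal fibroblast markers 6 fell and none rose, with a sum of 4928 to 6118 FPKM in Ctrl-Treg and 2632 to 3715 FPKM in Lenv-Treg; Col1a1 fell 3.74-fold and Dcn read 1115 ± 121 against 1273 ± 186 FPKM (SD, n = 3; adjusted p = 0.449). Of 8 adipocyte markers 6 fell, with sums of 2398 to 3382 against 1614 to 2346 FPKM, and of 10 skeletal muscle markers none passed, with sums of 3099 to 9845 against 2853 to 4093 FPKM. Of 6 basal keratinocyte markers 3 rose and 1 fell, with sums of 1789 to 2170 against 6119 to 6249 FPKM, so all 6 libraries held keratinocyte and dermal transcripts, as the label skin says. The members changed unequally. Krt14 was 5.75-fold higher in Lenv-Treg, Krt5 1.88-fold, Itga6 1.86-fold and Col17a1 1.07-fold, while Trp63 was 1.09-fold and Krt15 13.3-fold lower. Of 6 suprabasal keratinocyte markers 3 fell and 1 rose, with sums of 1819 to 3161 against 1395 to 3372 FPKM. Of 6 leukocyte markers 5 were tested, 2 rose and none fell, and their sum went from 131.4 to 230.9 FPKM in Ctrl-Treg to between 18238 and 25979 FPKM in Lenv-Treg. Nearly all of that sum was S100a8, an antimicrobial protein gene of neutrophils that inflamed keratinocytes also express, at 82.02, 16.7 and 42.1 against 18048, 21806 and 25817 FPKM (adjusted p = 4.05e-05). Itgam, a myeloid integrin gene, rose 1.87-fold (adjusted p = 0.015), a call lost with TPM (0.0529) and without Lenv-Treg replicate 2 (0.0566), and the general leukocyte gene Ptprc did not pass (adjusted p = 0.0884). Of 6 endothelial markers 1 rose, with sums of 71.95 to 114.1 against 119.4 to 146.7 FPKM. Of 4 tested Schwann cell markers 2 fell, with sums of 44.1 to 72.5 against 30.8 to 39.8 FPKM. Both tested cartilage markers, Acan and Cnmd, fell, and the list had sums of 2.98 to 4.13 against 0.0263 to 0.261 FPKM. Its other members had few reads and went both ways. Col2a1 had 38 reads in Ctrl-Treg against 0 in Lenv-Treg, Col9a1 16 against 2, Matn1 0 against 1 and Matn3 0 against 8. No marker of these lists was at 0 in every library, and their part in the Hox differences was not tested.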

How the data were processed

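Skin RNA was extracted with TRIzol and sequenced from VAHTS kit libraries, per the labels' protocols. Per the submitters' processing notes the genome build was GRCm39. Not given in the sources used here are strandedness, aligner, counter and annotation. The authors deposited FPKM values in 1 table of 35434 genes by 6 samples, and every sample column was used. Groups came from the treatment labels.

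Genes with FPKM of at least 0.5 in at least 3 samples (13945) were fitted with limma 3.58.1 in R 4.3.3 (lmFit and trended eBayes). The response was log2(FPKM + 1) with no covariate, and two-sided p-values were Benjamini-Hochberg adjusted with a threshold of 0.05. The fit was tested on simulated data. A single gene outside the filter was compared by an exact permutation test. Whole reads were recovered from the steps of the FPKM values for 13945 of 13945 tested genes (tolerance 0.005 reads plus 1.5e-07 per read) and summed to 99.2% to 99.6% of the depth; for single genes a common factor in the reads cannot be told apart from gene length, so read counts are uncertain to that extent. A voom fit on them called 1535 genes higher and 4336 lower, 1 and 15 of them Hox genes. Tables and figures were made with Python 3.11.15, pandas 2.3.3 and matplotlib 3.10.9.

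Values are given for each Hox gene that passed the filter; of each other list, the 2 tested members with the highest mean and the 2 others with the smallest p are named, apart from a few genes not reported here. The Hox members and the lists were chosen with earlier results of these data known. Alternatives were the pseudocount, the filter, scaling (median of ratios, TPM, quantile), the variance trend, a block for the replicate number, sample weights, voom and leaving out each library. Promoters are from RefSeq on GRCm38.p6 and exon overlaps from GENCODE M21 on that build; no coordinates were converted.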

Additional observations from a re-analysis of the deposited data

How the results depend on the processing

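Over all alternatives, 8 of the 16 Hox calls other than Hoxc13 held throughout (among them Hoxb2, Hoxb3, Hoxb5, Hoxb6, Hoxb8, Hoxc8 and Hoxd8), and 11 held without any 1 library. Of 497 values of single Hox genes, 445 kept direction and side of the threshold, 28 lost the threshold, 8 gained it and 16 changed sign, the latter all of genes that did not pass. After quantile normalization these were Hoxa2 (0.076), Hoxa6 (0.0042), Hoxa9 (0.051), Hoxa10 (0.23), Hoxb4 (0.21), Hoxc4 (0.074) and Hoxc10 (0.038); with median-of-ratios scaling Hoxa10 (0.11) and Hoxb4 (0.064); with sample weights Hoxa10 (0.012); with TPM Hoxc9 (-0.19). When 1 library was left out, Hoxa10 ranged from -0.31 to 0.14 and Hoxc9 from -0.057 to 0.073; the sign turned on leaving out replicate 1 or 2 of Ctrl-Treg or replicate 3 of Lenv-Treg for Hoxa10, and replicate 3 of Ctrl-Treg or replicate 2 of Lenv-Treg for Hoxc9. Hox genes lower numbered 7 and higher 3 after quantile normalization, and 11 to 16 lower and 1 to 2 higher when 1 library was left out. Over all genes, 2417 rose and 2417 fell with median-of-ratios scaling, 947 and 7970 with TPM, and 2304 fell after quantile normalization; leaving out 1 library gave 1152 to 1447 higher and 2780 to 3900 lower, the fewest without Lenv-Treg replicate 2, and the cause was not tested. Hoxc13 ranged from -4.13 to -3.68 without 1 library. With the replicate number as a block, 1637 genes rose and 4270 fell, 1 and 15 of them Hox genes; same-numbered libraries correlated at 0.196, -0.011 and 0.328 in their deviations, so the numbers were not taken to pair the samples. Depth limits the genes of groups 11 to 13.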
